A study of Homo sapiens with 3 samples.

Results

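The transcripts of HEK293T cells treated with Arkadia siRNA were compared directly with those of cells treated with ESRP2 siRNA, with 1 poly(A) RNA library a side. The members compared were the 11975 genes, of 23284 in the gene table, that had a usable quantification in all 3 libraries of the study and a mean level of at least 1 over them (FPKM, the fragment count scaled to transcript length and library size). HEK293T is an easily transfected human embryonic kidney line. Both siRNAs were given by reverse transfection, without TGF-beta, and cells were collected 48 h after seeding. The library of cells given a negative control siRNA takes no part in the contrast, and its values are set beside the others only to show where they lie. A difference in bulk RNA can reflect fewer cells of a kind or less RNA per cell, which cannot be told apart. No group has a replicate, so every difference below is one between 2 libraries, no test or p-value is given, and effects of the targeted protein, of other targets of an siRNA and of the culture or library cannot be told apart. Genes are called higher or lower at a stated size, computed as log2((Arkadia FPKM + 1)/(ESRP2 FPKM + 1)), which understates differences of low genes.

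Arkadia, the product of RNF111, is a RING-type ubiquitin ligase that recognises SUMO chains and amplifies TGF-beta family signals by marking repressors such as SKI and SKIL for degradation. ESRP2 and its paralog ESRP1 are RNA-binding proteins of epithelial cells that set the inclusion of cassette exons in genes of adhesion, the actin cytoskeleton and signalling. The comparison of both knockdown libraries asks which transcripts distinguish the loss of the ligase from the loss of the splicing regulator.

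The base composition of the transcript was, of the features measured, the one most closely related to the difference between the libraries, and the sequences of 2 named genes show what that means. The first 120 coding bases are printed 5′ to 3′ from the start codon, with G and C in capitals and A and T in lower case. They come from the GENCODE 29 transcripts matched to the RefSeq accessions of the table. METRN had the highest coding GC content among the leading genes that were higher with Arkadia siRNA, at 74.1%. C3orf14 was among the lowest of those that were lower, at 38.0%. Both were picked after their values were seen.
METRN: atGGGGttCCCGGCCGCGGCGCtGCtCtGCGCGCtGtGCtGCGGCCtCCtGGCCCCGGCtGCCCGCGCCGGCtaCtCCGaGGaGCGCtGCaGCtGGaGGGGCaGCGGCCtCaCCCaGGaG
C3orf14: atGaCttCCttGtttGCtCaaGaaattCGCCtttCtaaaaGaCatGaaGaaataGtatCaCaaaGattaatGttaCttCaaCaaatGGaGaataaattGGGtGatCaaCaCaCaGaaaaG

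METRN encodes meteorin, a secreted protein, and stood at an FPKM of 17.2 with Arkadia siRNA, 2.67 with ESRP2 siRNA and 11.5 with control siRNA. PHLDA2, an imprinted gene with a pleckstrin homology domain, stood at 8.56, 0.932 and 3.87 in the same order. RG9MTD1, a subunit of mitochondrial RNase P, stood at 26.8 with Arkadia siRNA, 211 with ESRP2 siRNA and 61.0 with control siRNA. C3orf14 stood at 7.98, 53.8 and 42.2 in that order. The printed stretches hold 93 G or C bases of 120 in METRN and 39 in C3orf14.

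Each siRNA target was the lower one in its own library. RNF111 (hg19, chromosome 15, 59279865 to 59389253) stood at 1.15 with Arkadia siRNA, with the authors' interval from 0.50 to 1.82, and at 7.65 (3.79 to 11.5) with ESRP2 siRNA. Its log2 ratio was -2.01, the intervals did not overlap, and about 58.3 and 533 reads lay behind the values. ESRP2 (locus on chromosome 16, 68119269 to 68270136, which overlaps a neighbouring gene) stood at 21.2 (6.21 to 36.5) with Arkadia siRNA and at 4.27 (0.0878 to 9.33) with ESRP2 siRNA. Its log2 ratio was 2.08, and these intervals overlapped. The control library gave 6.38 for RNF111 and 14.8 for ESRP2. ESRP1 was no member, at 0.123 with Arkadia siRNA, listed at 0 with ESRP2 siRNA and at 0.116 with control siRNA.

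By the steps of low values, 1 read on 1 kb was worth an FPKM of 0.1097 in the Arkadia siRNA library and 0.0796 in the ESRP2 siRNA library. These steps equal depths of about 9.12 M and 12.6 M reads only if FPKM was scaled to each library's own total. The sources used here do not state that scaling. Of 20 kidney developmental and HEK293 genes 16 were members, with summed FPKM of 748, 606 and 694 in the Arkadia, ESRP2 and control siRNA libraries. Of 31 markers of blood, endothelium, fibroblasts, hepatocytes, muscle and kidney tubule 2 were members. Their summed FPKM was 11.5, 7.84 and 10.1, and 29 and 30 of them lay under 1 in the Arkadia and ESRP2 siRNA libraries. RPS18 was the most abundant gene of each library, at 13601 with Arkadia siRNA, 19116 with ESRP2 siRNA and 21231 with control siRNA. Just inside the minimum of 1 lay RCN3 and KIF13B with means of 1.0001 and 1.0002, and just outside lay HDX and SEMA3A with 0.998 and 0.997.

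At 2-fold, 1093 member genes were higher with Arkadia siRNA than with ESRP2 siRNA (9.13% of 11975) and 1867 were lower (15.6%). Of these, 221 higher genes (1.85%) and 529 lower genes (4.42%) also had authors' intervals that did not overlap, and intervals were apart at any size in 756 genes (6.31%). The median log2 ratio of all members was -0.13, with 90% of genes between -1.49 and 1.24, and Pearson's r of log2(FPKM + 1) across genes was 0.888. With rescaling to the median of ratios the centre moved by 0.13, giving 1477 higher and 1406 lower genes, so 51.2% of the called genes are then higher, against 36.9% as deposited. List medians below are therefore to be read against -0.13. The control siRNA level lay between both knockdown libraries for 215 of the 221 higher and 510 of the 529 lower genes. Without the interval rule it did so for 1026 of 1093 and 1740 of 1867. A choice of genes by a wide gap between 2 libraries favours such a position, so these counts say nothing about the genes themselves.

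**Figure D1:**
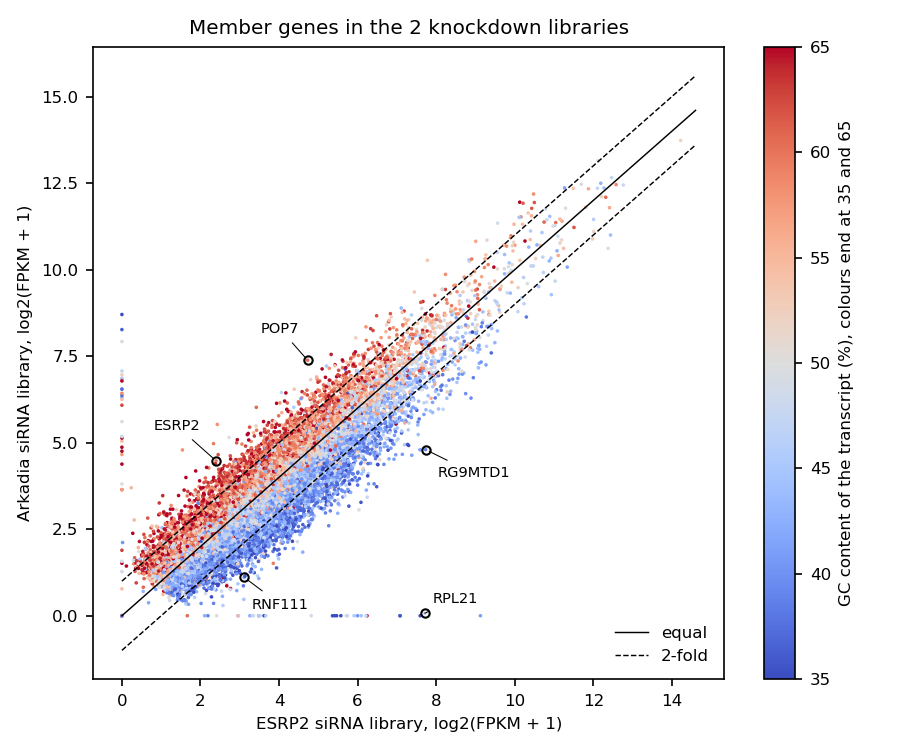
Level of 11857 member genes with a known transcript GC content in the ESRP2 siRNA library (x axis) and the Arkadia siRNA library (y axis), each as log2(FPKM + 1), with 1 point a gene coloured by GC content. GC-rich genes (red) lie mostly above the line of equality and GC-poor genes (blue) below it; RNF111 and ESRP2 are circled with POP7, RG9MTD1 and RPL21.

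The genes furthest up with Arkadia siRNA, taken where the larger FPKM reached 5 and the intervals were apart, began with POP7, a protein subunit of the nuclear RNase P and RNase MRP that trim tRNA and rRNA precursors. POP7 (chromosome 7, 100303676 to 100305123) stood at 166 (78.6 to 252) with Arkadia siRNA, 25.5 (11.5 to 39.2) with ESRP2 siRNA and 47.1 with control siRNA, which is 6.51-fold between the knockdown libraries. EMP3, an epithelial membrane protein family member, stood at 30.4, 4.03 and 15.3 in the same order. MRPL54, of the mitochondrial large ribosomal subunit, stood at 63.9, 9.70 and 24.4. In all 3 genes the control library lay between the knockdown libraries.

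RPS28, of the small cytosolic ribosomal subunit, stood at 1232 with Arkadia siRNA, 218 with ESRP2 siRNA and 821 with control siRNA. BID, a BH3-only activator of mitochondrial apoptosis, stood at 34.5, 5.63 and 25.3. GNB2, a G protein beta subunit, stood at 186, 39.1 and 169, so its control level was near that of the Arkadia siRNA library. GALK1, galactokinase, stood at 69.4, 14.3 and 21.0, and here the control was nearer to the ESRP2 siRNA library. TM7SF2, a sterol reductase of cholesterol synthesis, stood at 24.2, 4.46 and 11.3.

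METRNL, a secreted relative of meteorin, stood at 10.1 with Arkadia siRNA and 1.05 with ESRP2 siRNA. COL6A2, a chain of collagen VI, stood at 14.9 and 2.09, and GATSL3, an arginine sensor of the mTORC1 pathway, at 6.07 and 0.577. C16orf13 stood at 85.6 and 17.0, and OAF at 42.6 and 8.52. The 15 leading higher genes had transcript GC contents of 49.7% to 66.6%, with a median of 62.1%, against 49.3% for all members. About 10.8 to 1046 reads lay behind the value in their lower library, an estimate less certain for short transcripts such as RPS28.

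Among the genes furthest down with Arkadia siRNA, RG9MTD1, given above, was 7.86-fold lower and lies on chromosome 3, 101280712 to 101285089. SPCS3, a subunit of the signal peptidase complex, stood at 8.69 (4.29 to 13.1) with Arkadia siRNA, 66.8 (35.2 to 98.4) with ESRP2 siRNA and 25.004 with control siRNA. ARL6IP1, which shapes tubules of the endoplasmic reticulum, stood at 26.8, 191 and 26.0. Its control level was close to that of the Arkadia siRNA library and only just below it, so the ESRP2 siRNA library stood apart. ZBTB8OS, archease of the tRNA splicing ligase, stood at 11.4, 73.6 and 24.5.

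NDUFA5, a subunit of respiratory complex I, stood at 12.2 with Arkadia siRNA, 88.5 with ESRP2 siRNA and 32.7 with control siRNA, and 12 annotated pseudogenes carry its name. MRPL1, of the mitochondrial large subunit, stood at 13.0, 84.5 and 25.2, and MCEE, methylmalonyl-CoA epimerase, at 5.06, 37.4 and 8.32. GLO1, glyoxalase of methylglyoxal detoxification, stood at 77.1, 472 and 267. These 4 genes were thus lowest with Arkadia siRNA and highest with ESRP2 siRNA.

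TIPIN, a partner of TIMELESS at replication forks, stood at 23.9 with Arkadia siRNA and 165 with ESRP2 siRNA. COMMD9 stood at 9.74 and 74.7, AP3S2, a sigma subunit of the AP-3 coat, at 7.34 and 64.5, and LOC100861402 at 2.57 and 23.3. AP3S2 and LOC100861402 overlap 2 other genes each and TIPIN and BID overlap 1, and such loci can share reads. The 13 genes named in this and the preceding paragraphs as lower, with C3orf14, had transcript GC contents of 35.8% to 50.7% and a median of 39.5%. The control lay between the knockdown libraries in 12 of the 13, which a choice by wide gaps favours.

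RPL21 and MIR380 also met the size rule and are set apart because their intervals do not hold their own values. RPL21, of the large ribosomal subunit, was 0.0514 with Arkadia siRNA, with an interval of 0 to 0, against 208 with ESRP2 siRNA and 174 with control siRNA, and 66 annotated pseudogenes carry its name. Its locus also overlaps 3 other genes, so it can share reads with them. MIR380, a microRNA gene of 61 nt, was listed at 0 with Arkadia siRNA and at 557 with ESRP2 siRNA, outside its own interval of 1.38 to 22.01. Together 56 members were listed at 0 in 1 knockdown library and at 5 or more in the other. They were 28 on each side, small RNA genes of 44 to 204 nt, mostly microRNA, small nucleolar and Cajal body RNA genes with RNU5F-1 and SNAR-G1 beside them. Read numbers are not given for them, since the estimate was made on genes above 2000 nt and does not hold for genes this short. Different genes of 72 nt share a value of 92.4 with Arkadia siRNA and one of 134 with ESRP2 siRNA. Such values may rest on few reads.

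**Figure D2:**
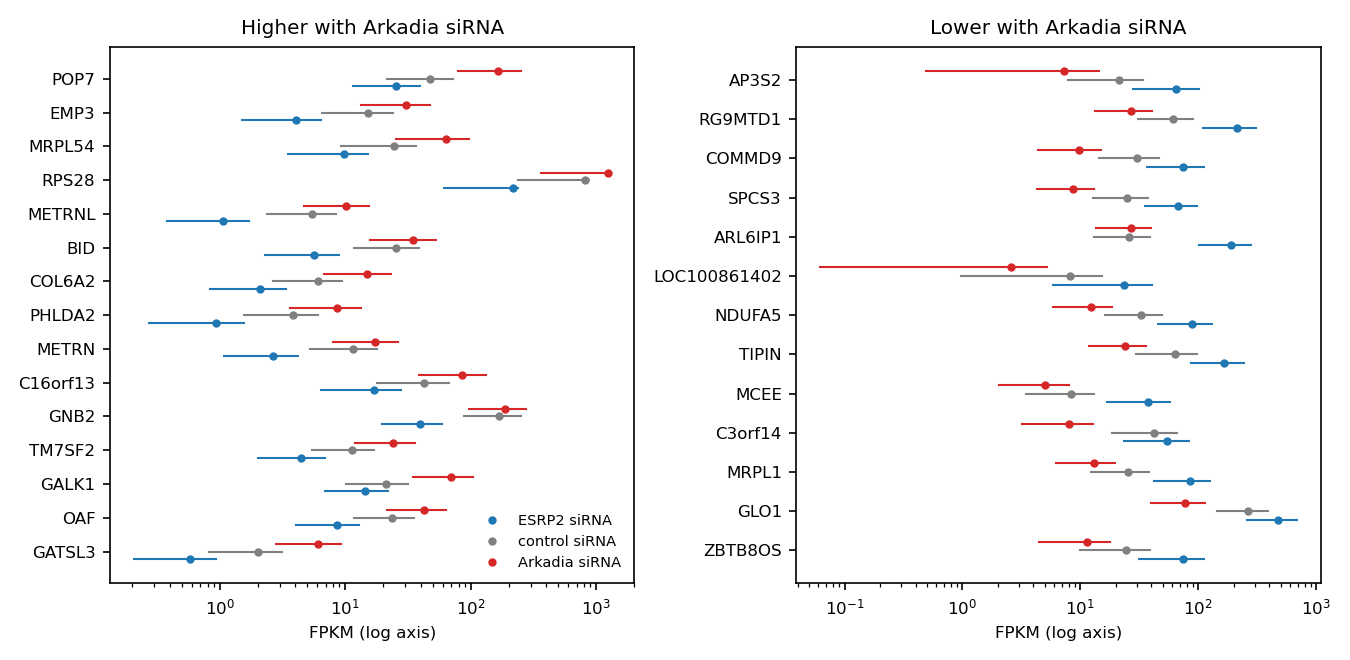
FPKM (log axis) in the ESRP2, control and Arkadia siRNA libraries, with the authors' confidence interval as a line, for the 15 leading genes higher and 13 of the 15 leading genes lower with Arkadia siRNA; RPL21 and MIR380 are left out. The blue and red lines of a gene do not overlap. The grey control point lies between the blue and red points in all but ARL6IP1, but it can lie within one of the lines, as in EMP3, BID and GNB2.

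Across genes, the log2 ratio between the libraries followed the GC content of the transcript, with Spearman's rho of 0.75 over 11857 genes, which share the same 2 libraries. In the tenth of genes with the lowest GC content, up to 39.0%, the median log2 ratio was -1.06, and 55.2% of genes were at least 2-fold lower with Arkadia siRNA while 0.506% were higher. In the tenth with the highest, from 62.1%, the median was 0.80, with 35.2% higher and 0.759% lower. The median was higher at every step between. By region, rho was 0.71 for the coding sequence, 0.67 for the 3′ untranslated region, 0.22 for the 5′ untranslated region and 0.15 for the promoter window.

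Coding and 3′ untranslated GC content each kept a partial correlation with the ratio given the other, 0.42 and 0.31. Transcript length had a rho of -0.18, which was -0.004 given GC content, while GC content given length kept 0.74. Mean level had a rho of 0.007. Higher genes with intervals that did not overlap had a median transcript GC content of 62.3% and lower ones of 39.3%. What set this relation was not tested, and with 1 library a side a bias of a library cannot be told apart from an effect of an siRNA.

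The chromosomes showed the same order. Over 23 chromosomes the median log2 ratio ran from -0.64 on chromosome 4, with a median transcript GC content of 43.3%, to 0.61 on chromosome 19, with 60.1%, and Pearson's r of both medians was 0.993. On chromosome 19, 27.4% of 795 members were higher and 2.39% lower. On chromosome 4, 4.11% of 438 were higher and 27.2% lower. After subtraction of the GC decile medians the chromosome medians lay between -0.06 and 0.11.

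**Figure D3:**
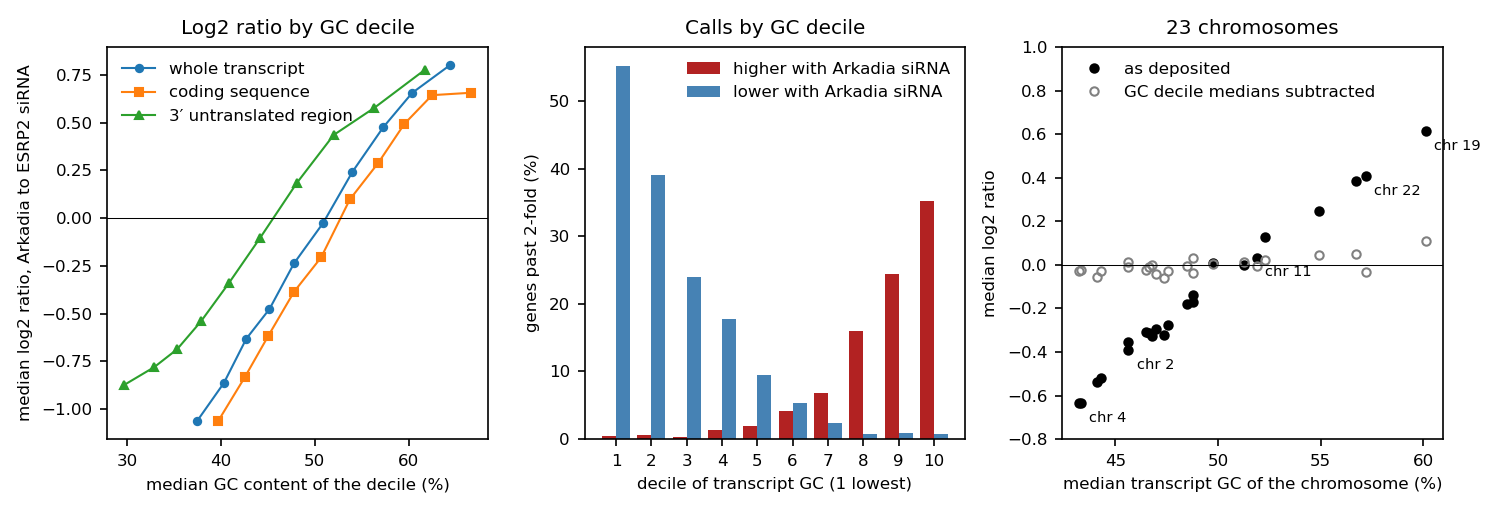
Left, median log2 ratio of Arkadia to ESRP2 siRNA in each decile of GC content, for the whole transcript, the coding sequence and the 3′ untranslated region; middle, percentage of genes past 2-fold in each decile of transcript GC; right, median log2 ratio of each of 23 chromosomes against its median GC content, as deposited and after subtraction. Whole-transcript medians climb from -1.06 to 0.80, and chromosome medians lie near 0 after subtraction.

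With the median of its GC decile taken from each ratio, 430 genes were higher and 568 lower at 2-fold, of which 100 and 195 had intervals apart. The 10 genes then furthest up with intervals apart had GC contents of 40.3% to 60.6%, with a median of 50.96%. HNRNPA0, an RNA-binding hnRNP protein with a GC content of 41.1%, stood at 76.2 with Arkadia siRNA, 22.5 with ESRP2 siRNA and 58.0 with control siRNA, and its log2 ratio went from 1.71 to 2.58. RPL26L1, a ribosomal protein L26 paralog, stood at 148, 36.0 and 66.1, and RPL37 at 473, 137 and 271. BID had a GC content of 49.7%, and its log2 ratio was 2.42 before and 2.45 after.

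PBK, a mitotic kinase with a GC content of 40.3%, stood at 20.6 with Arkadia siRNA, 6.44 with ESRP2 siRNA and 18.99 with control siRNA. CSTB, an inhibitor of cathepsins, stood at 260, 60.9 and 212, and ABCF2 at 112, 26.9 and 74.1. POP7, EMP3 and RPS28 were also among these 10, EMP3 with 1.99 and RPS28 with 2.25 after subtraction. For PBK and CSTB the control level was close to that of the Arkadia siRNA library.

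Furthest down after subtraction, beside RPL21 and MIR380, were AP3S2 with -2.95 and COMMD9 with -2.58. PITX3, a homeobox gene with a GC content of 69.7%, stood at 1.12 with Arkadia siRNA, 5.02 with ESRP2 siRNA and 3.71 with control siRNA, and its log2 ratio went from -1.50 to -2.31. DHRS4L2, a dehydrogenase family gene, stood at 3.30, 15.6 and 8.76. EDA, the ectodysplasin ligand, stood at 2.06, 10.3 and 3.77, C14orf109 at 9.17, 44.2 and 19.1, and FAM76A at 3.41, 21.1 and 6.80. LOC100861402 completed them with -2.13.

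Gene lists of pathways are described by their members past 1.5-fold, the size used for list members, to be read against 21.4% of all members higher and 30.8% lower at that size. Each list is given with its median log2 ratio as deposited and after GC subtraction. These counts include genes with overlapping intervals. Over all members, 1.88% were 1.5-fold higher and 4.43% lower with intervals apart. Of the genes named below, intervals overlapped for LTBP3, SRSF9, SNRPG, RPS27, EIF6, NDUFA13, FAS, PFKP, EGLN2, VHL, DHCR7, SC5DL, INSIG1 and STARD4. They also overlapped for HIST3H2A, HIST1H1E, HIST1H2BO, SDHA, GUSB, TFRC, HPRT1, FZD2, NKD2, LEF1, IER2, JUN and MCL1. All named interferon, neuronal, kidney developmental and small nucleolar RNA host genes had overlapping intervals too. Among the list genes named below, RPL21, RPL37, KRT10, EIF3J, NDUFS8, SRSF9, UHRF1, CCNE2, LEF1, LTBP3, TAGLN, FAS, MBNL1, STARD4, EGLN2, AP3B2, SNHG5, SNHG8, SNHG9 and SNHG10 lie in loci that overlap other genes, so their values can share reads.

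The TGF-beta and BMP pathway is the one in which Arkadia is best known. Of 41 members from a list of 51 components, 6 were higher and 8 lower, both under the background, with a median of -0.10 that was 0.03 after rescaling by the median of ratios and 0.16 after subtraction. BMP2, a ligand, stood at 3.97 (1.89 to 6.05) with Arkadia siRNA, 0.632 (0.24 to 1.01) with ESRP2 siRNA and 0.760 with control siRNA, so the Arkadia siRNA library stood apart from both others. SMAD6, an inhibitory SMAD, stood at 7.44 with Arkadia siRNA and 1.35 with ESRP2 siRNA, and its control level of 5.99 was nearer to the former. SKIL, a repressor degraded through Arkadia, stood at 1.20 with Arkadia siRNA, 4.30 with ESRP2 siRNA and 2.06 with control siRNA. The intervals of BMP2, SMAD6 and SKIL did not overlap between the knockdown libraries. With GC subtraction the log2 ratio of SKIL, with a GC content of 33.4%, went from -1.27 to -0.21. That of SMAD6 went from 1.84 to 1.04 and that of BMP2 from 1.61 to 1.63.

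USP15, a deubiquitinase of the pathway, stood at 5.21 and 23.3 with overlapping intervals, and LTBP3, which holds latent TGF-beta in the matrix, at 7.80 and 2.74. By role, 2 of 7 ligands were higher and 0 lower, 1 of 9 receptors higher and 2 lower, 1 of 8 SMADs higher and 2 lower, and 2 of 17 regulators higher and 4 lower. Of 21 target gene members 3 were higher and 6 lower, with a median of 0.09, and -0.18 after subtraction. CDKN1A, a cell cycle inhibitor, stood at 25.5 and 11.7, MSX1 at 20.3 and 9.83, SNAI2 at 3.93 and 8.55, KLF10 at 5.39 and 12.04, and TAGLN at 0.857 and 2.87. None of these 5 pairs had intervals apart.

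The list of SUMO and ubiquitin partners of Arkadia contains RNF111 itself. Of its 34 members 2 were higher (5.88%) and 17 lower, with a median of -0.60, and -0.22 after subtraction. UBE2V2, a ubiquitin E2 variant, stood at 29.2 (14.4 to 44.0) with Arkadia siRNA, 156 (81.4 to 231) with ESRP2 siRNA and 49.0 with control siRNA. SENP2, a SUMO protease, stood at 8.20, 45.3 and 20.8. UBE2D3 and UBE2D1, E2 enzymes of the UBCH5 family that work with RING ligases, stood at 88.5 and 330 and at 5.90 and 20.7 in the Arkadia and ESRP2 siRNA libraries. Of the 17 lower members 9 had intervals that did not overlap. The summed FPKM of the list was 5340 with Arkadia siRNA, 9410 with ESRP2 siRNA and 5294 with control siRNA, so by this sum the ESRP2 siRNA library stood apart. Its largest part came from the 11 ligase and target members, at 3795, 7045 and 3638, of which 5 were lower. Not every member follows the sum. The control level of SENP2 lay between, and that of RNF111, 6.38, was nearer to the 7.65 of ESRP2 siRNA.

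The RNF family, taken whole, had 62 members, the siRNA target RNF111 among them. Of these 12 were higher and 16 lower, with a median of -0.12 as deposited that was 0.01 after rescaling by the median of ratios and 0.05 after GC subtraction. RNF219 stood at 13.3 with Arkadia siRNA and 48.3 with ESRP2 siRNA, RNF141 at 3.52 and 14.1, RNF14 at 11.7 and 34.3, and RNF126 at 54.8 and 18.9. RNF219 and RNF141, like RNF111, had intervals apart.

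Genes known as splicing targets of the ESRP proteins were, as whole genes, 6 higher and 13 lower among 40 members, with a median of 0.03, and -0.01 after subtraction. ECT2, an exchange factor of cytokinesis, stood at 14.0 with Arkadia siRNA, 44.4 with ESRP2 siRNA and 26.95 with control siRNA. MBNL1, itself a splicing regulator, stood at 6.21, 20.4 and 8.18. SLK, a kinase of the cytoskeleton, stood at 11.5 and 31.7, and EXOC1 of the exocyst at 6.11 and 19.5 in the Arkadia and ESRP2 siRNA libraries. Only ECT2 and MBNL1 of these 4 had intervals apart.

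Among 64 splicing regulators 15 were higher and 17 lower, with a median of 0.05, and 0.22 after subtraction. Of 20 core spliceosome members 9 were higher and 2 lower, with a median of 0.48, and 0.50 after subtraction. Of 15 hnRNP and PTB members 2 were higher and 6 lower, with -0.41, and 0.17 after subtraction. Of 15 tissue regulators 2 were higher and 6 lower, and of 14 SR proteins 2 were higher and 3 lower. UBL5, a ubiquitin-like spliceosome factor, stood at 653 with Arkadia siRNA and at 173 in both other libraries. SRSF9, an SR protein, stood at 395, 115 and 295 with Arkadia, ESRP2 and control siRNA, SNRPG, an Sm protein with 20 annotated pseudogenes, at 160, 564 and 240, and PTBP2, the neuronal PTB, at 5.41, 18.0 and 7.02.

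Epithelial genes had 16 members of 32, with 3 higher and 3 lower and medians of 0.17, and -0.04 after subtraction. KRT10, a keratin, stood at 2.49 (0.51 to 4.47) with Arkadia siRNA, 11.2 (4.78 to 17.7) with ESRP2 siRNA and 8.57 with control siRNA. OCLN, of tight junctions, stood at 2.04 and 5.45, TJP1 at 6.75 and 12.9, JUP at 20.8 and 11.9, and SPINT2, a protease inhibitor, at 9.17 and 3.63, all with overlapping intervals. Mesenchymal genes had 21 members of 25, with 4 higher and 7 lower and medians of -0.27, and 0.19 after subtraction. CALD1, an actin-binding protein, stood at 20.3 and 50.1, COL5A1 at 3.45 and 1.16, TPM2 at 4.42 and 1.77, and S100A4 at 0.989 and 2.87, none with intervals apart.

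Cytosolic ribosomal protein genes had the highest list median. Of 78 members from a list of 79, 37 were higher (47.4%) and 7 lower (8.97%), with a median of 0.45, and 0.62 after GC subtraction. After subtraction of length decile medians as well it was 0.56. Small-subunit genes had 16 of 31 higher and 3 lower with a median of 0.70, and large-subunit genes 21 of 47 higher and 4 lower with 0.41. RPS19 stood at 1802 (875 to 2708) with Arkadia siRNA, 513 (244 to 772) with ESRP2 siRNA and 526 with control siRNA. RPS27 stood at 2593, 755 and 1203 in the same order, and its values in both knockdown libraries lie outside their own intervals.

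Their summed FPKM was 193737 with Arkadia siRNA, 160769 with ESRP2 siRNA and 163921 with control siRNA, although the most abundant of them, RPS18, was lowest with Arkadia siRNA. Ribosomal protein genes have many processed pseudogenes, 15 carrying the name of RPS27 and 11 that of RPL37, so values of single genes depend on how reads were assigned. Only 7 of the 37 higher genes had intervals that did not overlap. Of the 7 lower genes 3 did, RPL21 among them.

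Mitochondrial ribosomal proteins were divided: of 76 members 20 were higher and 23 lower, with a median of -0.01 that was 0.14 after rescaling and 0.09 after subtraction. MRPL4 stood at 162 with Arkadia siRNA and 48.5 with ESRP2 siRNA, and MRPS34 at 196 and 60.5, with GC contents of 62.1% and 64.8%. MRPL13 stood at 156 and 546, with a GC content of 42.2%. All 3 pairs of intervals were apart. Translation factors had 9 higher and 12 lower among 46, with a median of -0.11 that was 0.04 after rescaling by the median of ratios and 0.10 after GC subtraction. EIF3J and EIF3E, of initiation factor 3, stood at 13.9 and 62.4 and at 395 and 1254 in the Arkadia and ESRP2 siRNA libraries, EIF4EBP2, a repressor of initiation, at 19.2 and 55.6, and EIF6 at 237 and 89.9.

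Of 77 oxidative phosphorylation genes, all members, 22 were higher and 17 lower, with a median of 0.21, and 0.35 after subtraction. Complex I had 14 of 38 higher and 9 lower, with a median of 0.38. NDUFS8 stood at 313 (154 to 472) with Arkadia siRNA, 79.5 (37.0 to 122) with ESRP2 siRNA and 114 with control siRNA. NDUFA7 stood at 118.3, 30.05 and 47.1, and NDUFA13 at 423, 113 and 319. SDHD, of complex II, stood at 55.3, 205 and 61.4, so in this gene the ESRP2 siRNA library stood apart from both others. Complexes II to V had 8 higher and 8 lower among 39.

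Cell cycle genes had more lower than higher members with Arkadia siRNA as deposited. Of 42 mitosis genes, all members, 5 were higher and 22 lower (52.4%), with a median of -0.65, a median GC content of 43.2%, and a median of -0.01 after GC subtraction. Of 14 checkpoint and kinetochore genes 0 were higher and 10 lower, with a median of -1.08, and -0.23 after subtraction. TPX2, a spindle assembly factor, stood at 54.9 (28.5 to 81.2) with Arkadia siRNA, 165 (88.9 to 241) with ESRP2 siRNA and 86.2 with control siRNA. MAD2L1, of the spindle checkpoint, stood at 97.1, 276 and 179, CDK1, the mitotic kinase, at 60.2, 181 and 69.7, and HMMR at 11.4, 33.4 and 19.1. The intervals of CDK1 and HMMR overlapped.

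Of 47 S phase genes, all members, 10 were higher and 23 lower (48.9%), with a median of -0.57, and -0.20 after subtraction. DNA polymerase and clamp genes had 12 of 17 lower and 3 higher. SLBP, which binds the stem loop of histone messages, stood at 133 (69.5 to 196) with Arkadia siRNA, 401 (214 to 587) with ESRP2 siRNA and 171 with control siRNA. Its log2 ratio was -1.59 before and -1.56 after GC subtraction. RRM1, the large subunit of ribonucleotide reductase, stood at 72.3, 187 and 124, ORC3 at 16.5, 44.8 and 24.3, CCNE2 at 3.82, 11.5 and 3.86, and UHRF1, a reader of hemimethylated DNA, at 44.96, 16.8 and 35.8. The intervals of RRM1, ORC3, CCNE2 and UHRF1 overlapped between the knockdown libraries.

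Replication-dependent histone genes, whose messages largely lack poly(A) tails, had 25 members of 65, with 9 higher and 6 lower and a median of 0.03, and -0.14 after subtraction. H2A genes had 5 of 6 higher and 0 lower, and H4 genes 1 of 6 higher and 3 lower. In the Arkadia siRNA library HIST1H4C and HIST1H4A were listed at 0, and ESRP2 siRNA gave 4.33 and 2.17. HIST3H2A stood at 15.6 and 5.80, HIST1H1E at 1.05 and 3.44, and HIST1H2BO at 1.16 and 3.92. The copies resemble each other, so these values are uncertain.

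The p53 targets were the list with the lowest median after GC subtraction. Of 27 members 4 were higher and 12 lower (44.4%), with a median of -0.18, and -0.40 after subtraction. AEN, an apoptosis-enhancing nuclease with a GC content of 56.0%, stood at 76.8 (40.3 to 114) with Arkadia siRNA, 233 (127 to 339) with ESRP2 siRNA and 169 with control siRNA, and its log2 ratio went from -1.59 to -2.06. RRM2B, the p53-induced small subunit of ribonucleotide reductase, stood at 3.92, 17.3 and 9.59, C12orf5, the TIGAR phosphatase, at 3.75, 16.0 and 4.58, and FAS, a death receptor, at 1.86, 7.14 and 3.51. BAX, a pore former of apoptosis, went the other way, at 358, 109 and 164.

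Hypoxia and glycolysis genes had 10 higher and 3 lower among 33 members, with a median of 0.29, and 0.26 after subtraction. Glycolysis genes had 6 of 18 higher and 1 lower. PFKL and PFKP, subunits of phosphofructokinase, stood at 106 and 30.8 and at 83.8 and 32.9 in the Arkadia and ESRP2 siRNA libraries, and PFKL had intervals apart. BNIP3L, a mitophagy receptor, stood at 11.1 and 34.1, EGLN2, a prolyl hydroxylase, at 23.2 and 9.15, and VHL, of the ligase that binds hydroxylated HIF, at 23.2 and 51.1. Cholesterol synthesis had 10 higher and 8 lower among 27, with a median of 0.37, and 0.10 after subtraction, DHCR7 at 109 and 42.8, SC5DL at 8.56 and 22.8, INSIG1, which retains SREBP, at 57.3 and 147, and STARD4 at 2.89 and 9.89.

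Genes of endoplasmic reticulum folding and amino acid stress had 11 higher and 10 lower among 37, with a median of 0.18, and 0.08 after subtraction. Chaperones had 3 of 19 higher and 7 lower, with a median of -0.42, and 0.04 after subtraction, while transcription and stress genes had 8 of 18 higher and 3 lower, with 0.41, and 0.16 after subtraction. DNAJB11, a chaperone of the lumen, stood at 25.6 with Arkadia siRNA and 87.7 with ESRP2 siRNA, and DNAJB9 at 2.50 and 8.22. CEBPB, a stress transcription factor, stood at 12.004 and 3.20, PHGDH of serine synthesis at 319 and 119, and DDIT4, an mTORC1 inhibitor, at 62.2 and 25.8. The intervals of DNAJB11, DNAJB9 and CEBPB were apart.

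Cytosolic heat shock genes had 4 higher and 4 lower among 17, with a median of -0.35, and 0.06 after subtraction, HSPB1 at 120 with Arkadia siRNA and 45.8 with ESRP2 siRNA, DNAJB1 at 71.1 and 37.4, HSPA4 at 69.5 and 157, DNAJB4 at 3.58 and 8.67, and CHORDC1 at 19.7 and 34.5. Proteasome subunits had 6 higher and 7 lower among 34, with PSMD8 at 261 and 95.8, PSMA4 at 221 and 541, ADRM1, a ubiquitin receptor, at 101 and 46.4, PSMD9 at 29.4 and 13.9, and PSMA5 at 32.5 and 68.5. The proteasome median was -0.09, 0.06 after rescaling and 0.29 after subtraction. None of these 10 pairs of intervals was apart.

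ZNF zinc finger genes, the longest list, had 42 higher (11.7%) and 139 lower (38.7%) among 359 members, with a median of -0.42 and a median GC content of 44.4%. After GC subtraction the median was 0.03. ZNF518A stood at 1.97 with Arkadia siRNA and 10.1 with ESRP2 siRNA, ZNF770 at 6.26 and 22.7, ZNF24 at 19.99 and 66.5, ZNF204P at 2.67 and 10.5, and ZNF724P at 0.279 and 3.04, all with intervals apart. Housekeeping genes had 5 higher and 3 lower among 18, with a median of 0.16, and 0.40 after subtraction, POLR2A, the catalytic subunit of RNA polymerase II, at 84.7 and 27.6, SDHA at 160 and 76.8, GUSB at 43.9 and 21.4, TFRC at 57.5 and 142, and HPRT1 at 77.4 and 169.

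Wnt genes had 7 higher and 7 lower among 27, with a median of 0.20, and 0.16 after subtraction, the coreceptor LRP5 at 28.9 with Arkadia siRNA and 7.86 with ESRP2 siRNA, the kinase CSNK1A1 at 41.9 and 127, FZD2 at 6.89 and 2.62, NKD2 at 8.74 and 3.27, and LEF1 at 10.8 and 23.1. Immediate early genes had 5 higher and 3 lower among 22, with a median of 0.06, and -0.30 after subtraction, FOSL2 at 2.93 and 0.786, IER2 at 8.57 and 2.95, JUN at 63.8 and 37.2, and MCL1 at 49.1 and 144. Interferon response genes had 2 higher and 3 lower among 18, with a median of -0.002 (0.13 after rescaling, 0.01 after subtraction), IFITM2 at 4.85 and 1.97, IRF9 at 3.54 and 1.87, IFIT5 at 3.78 and 7.15, and EIF2AK2 at 4.07 and 6.82.

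Neuronal genes had 2 higher and 1 lower among 17, with a median of 0.07, and -0.01 after subtraction, the complexin CPLX1 at 3.44 with Arkadia siRNA and 1.11 with ESRP2 siRNA, AP3B2 at 1.90 and 0.617, and the RNA-binding protein ELAVL2 at 2.25 and 7.86. For CPLX1 and AP3B2 the control level, 6.10 and 5.03, lay above both. Kidney developmental genes had 2 higher and 1 lower among 16, with a median of 0.18, and -0.07 after subtraction, HOXA11 at 31.0 and 17.0, and PAX2 at 2.13 and 0.835. Small nucleolar RNA host genes had 4 higher and 5 lower among 18, with a median of 0.06, and 0.20 after subtraction, SNHG5 at 327 and 622, SNHG8 at 204 and 393, SNHG10 at 4.72 and 10.3, TAF1D at 16.1 and 33.1, and SNHG9, of 233 nt, at 10.3 and 4.47. The Arkadia siRNA value of SNHG9 lies outside its own interval.

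**Figure D4:**
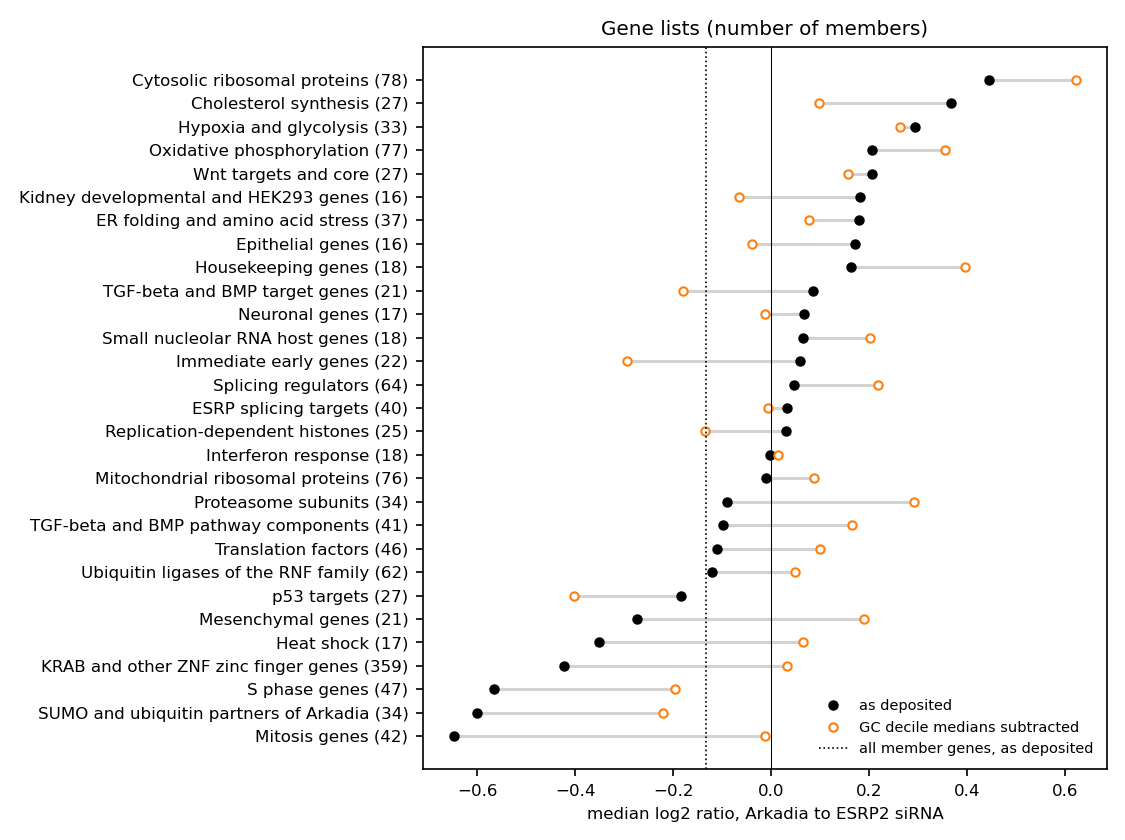
Median log2 ratio of Arkadia to ESRP2 siRNA for 29 gene lists, as deposited (black) and after subtraction of GC decile medians (orange), with the number of members in parentheses and the median of all members, -0.13, dotted. Cytosolic ribosomal proteins lie furthest right at 0.45 and 0.62, and the mitosis list moves from -0.65 to -0.01.

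Isoform shares were compared for 3450 genes that have 2 or more isoforms and whose summed isoform FPKM reached 5 in both libraries. The change of usage is the summed absolute difference of shares divided by 2, so that 0 means equal shares and 1 a complete exchange. It was 0.25 or more in 909 genes (26.3%), with a median of 0.108 over all. In 392 of the 909, at least 1 isoform had intervals that did not overlap. Some of these isoforms, as in CLCN2, NR4A1 and SLC11A2, have an interval of 0 to 0 that does not hold their own value. How many of the 392 rest on such intervals was not counted. Among the 909, the gene as a whole was also past 2-fold in 217.

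The share of genes past 0.25 went down with level and up with the number of isoforms. It was 30.5% where the lower summed FPKM was 5 to 20, 25.03% at 20 to 50 and 16.7% above that. It was 17.3% for genes with 2 isoforms and 51.1% for those with 9 or more. Among genes past 0.25 whose gaining and losing isoforms differed in length, the isoform with the larger share in the Arkadia siRNA library was the longer one in 604 of 908 (66.5%), against 56.1% of the genes that did not pass. Where the control summed FPKM also reached 5, control shares were nearer to Arkadia siRNA in 524 genes and nearer to ESRP2 siRNA in 376.

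For 9 isoform pairs, 3 from the genes with the largest changes and 6 from known ESRP targets, the deposited isoforms differed by exactly 1 coding block that GENCODE 29 also holds. These blocks are printed in capitals with 20 bases of the neighbouring exons in lower case, 5′ to 3′ on the strand of the gene, since the shares below are those of all isoforms of the gene that hold the block. Isoforms were assigned by whether their GENCODE exons cover it, and the 1 isoform left unmatched, in EXOC7, was listed at 0. Coordinates are those of the capitals on GRCh38, a later build than the hg19 of the tables.
CLCN2, 51 bases, chr3:184354608-184354658, minus strand: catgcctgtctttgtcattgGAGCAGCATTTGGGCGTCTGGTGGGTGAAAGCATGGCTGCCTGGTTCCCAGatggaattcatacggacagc
CRBN, 3 bases, chr3:3175267-3175269, minus strand: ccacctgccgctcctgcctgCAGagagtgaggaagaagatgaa
MLL, 9 bases, chr11:118491310-118491318, plus strand: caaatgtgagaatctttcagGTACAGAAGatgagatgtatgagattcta
NUMB, 144 bases, chr14:73279281-73279424, minus strand: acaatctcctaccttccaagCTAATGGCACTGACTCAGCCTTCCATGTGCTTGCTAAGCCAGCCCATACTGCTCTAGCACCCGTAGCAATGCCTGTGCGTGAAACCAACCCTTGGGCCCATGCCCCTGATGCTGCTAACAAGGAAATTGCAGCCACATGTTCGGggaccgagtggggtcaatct
ARHGAP17, 234 bases, chr16:24939364-24939597, minus strand: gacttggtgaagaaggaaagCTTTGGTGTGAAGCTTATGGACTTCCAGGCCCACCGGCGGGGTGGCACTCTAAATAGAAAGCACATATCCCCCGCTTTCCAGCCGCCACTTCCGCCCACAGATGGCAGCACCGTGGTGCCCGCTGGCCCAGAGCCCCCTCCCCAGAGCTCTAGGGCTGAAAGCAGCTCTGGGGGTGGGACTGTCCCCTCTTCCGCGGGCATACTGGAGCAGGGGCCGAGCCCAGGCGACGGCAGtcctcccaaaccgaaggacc
ARHGEF11, 120 bases, chr1:156971697-156971816, minus strand: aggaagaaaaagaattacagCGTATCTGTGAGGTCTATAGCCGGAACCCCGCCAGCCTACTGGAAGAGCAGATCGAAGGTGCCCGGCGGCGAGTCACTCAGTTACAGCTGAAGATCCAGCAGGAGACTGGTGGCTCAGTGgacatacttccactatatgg
LAS1L, 51 bases, chrX:65524564-65524614, minus strand: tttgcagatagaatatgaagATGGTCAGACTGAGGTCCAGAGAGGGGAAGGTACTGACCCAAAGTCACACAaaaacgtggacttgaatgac
EXOC7, 93 bases, chr17:76091143-76091235, minus strand: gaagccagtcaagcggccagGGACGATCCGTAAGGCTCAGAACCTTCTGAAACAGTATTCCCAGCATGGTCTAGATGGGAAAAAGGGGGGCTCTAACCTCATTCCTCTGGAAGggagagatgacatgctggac
CLSTN1, 30 bases, chr1:9756481-9756510, minus strand: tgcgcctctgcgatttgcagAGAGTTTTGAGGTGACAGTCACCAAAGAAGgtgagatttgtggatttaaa

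All 9 blocks are multiples of 3 and keep the reading frame. In these 6 ESRP targets, isoforms with the block had a larger share with Arkadia siRNA than with ESRP2 siRNA in 5 and a smaller one in CLSTN1. Over 3323 compared genes whose gaining and losing isoforms differed in length, the isoform gaining with Arkadia siRNA was the longer in 58.9%. Among genes past 0.25 it was the longer in 66.5%. With only 6 of the 28 targets compared, the count cannot be told apart from that general tendency. ARHGAP17, a GTPase activating protein, had the 234-base exon in 76.3% of its summed FPKM with Arkadia siRNA, 47.7% with ESRP2 siRNA and 84.5% with control siRNA. ARHGEF11, a guanine nucleotide exchange factor, had the 120-base exon in 46.9%, 21.5% and 71.7%. In both genes the ESRP2 siRNA library had the smallest share and the control the largest, and the changes of usage were 0.286 and 0.254.

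NUMB, an inhibitor of Notch, has 4 isoforms, and the 2 with the 144-base exon together made up 60.4% with Arkadia siRNA, 30.1% with ESRP2 siRNA and 49.2% with control siRNA. EXOC7, of the exocyst, had its 3 isoforms with the 93-base block at 33.8%, 21.5% and 40.96%. LAS1L, of ribosome biogenesis, had the 51-base block in 39.8%, 17.6% and 15.9%, so the Arkadia siRNA library was the one apart. CLSTN1, calsyntenin, had the 30-base exon in 1.76%, 18.0% and 2.77%, and here the ESRP2 siRNA library was apart. The authors' intervals of these isoforms overlapped between the knockdown libraries in all 6 genes, and the change of usage was 0.304 in NUMB, 0.222 in LAS1L, 0.169 in EXOC7 and 0.162 in CLSTN1.

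**Figure D5:**
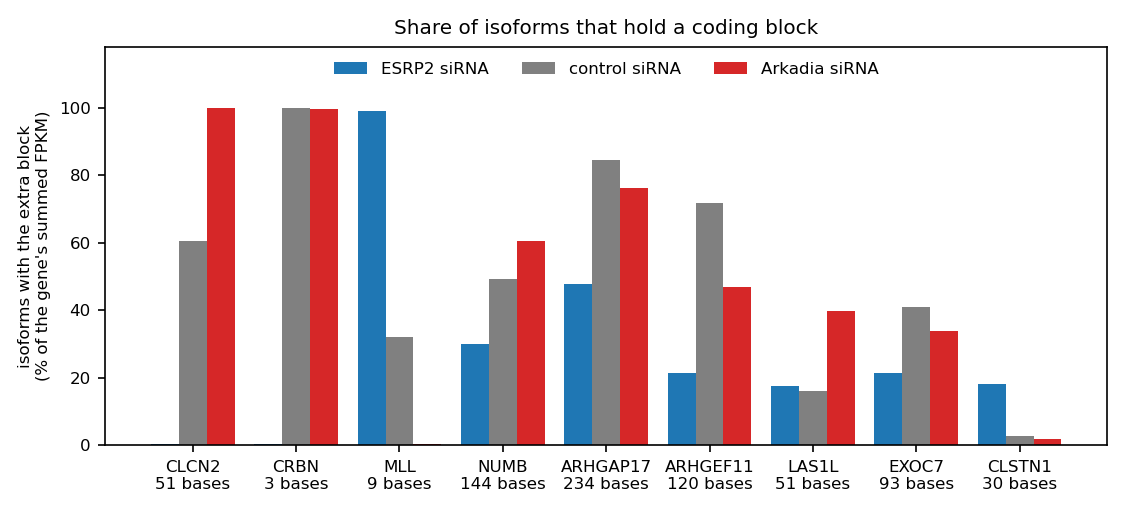
Summed share of the isoforms with the extra coding block in the isoform FPKM of their gene (percent, from 0), in the ESRP2, control and Arkadia siRNA libraries, for 9 genes named with the size of the block. ARHGAP17, ARHGEF11, NUMB, LAS1L and EXOC7 have the larger share with Arkadia siRNA than with ESRP2 siRNA, and MLL and CLSTN1 the smaller one.

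Of 42 genes listed as ESRP splicing targets 28 could be compared, and 13 of them were past 0.25 (46.4%, against 26.3% of all genes compared), with a median change of 0.236 against 0.108. The targets have more isoforms, 10 of the 28 with 5 or more, and all genes weighted to their isoform numbers gave 31.6%. With at least 1 isoform whose intervals were apart, 2 of the 28 targets were past 0.25 (7.14%), MBNL1 and PLEKHA1. Among all genes it was 392 of 3450 (11.4%), so the excess is not seen under that rule. The rule is weak for isoforms near 0. In PLEKHA1 the isoform apart stood at 0.000116 with Arkadia siRNA, outside its own interval of 0 to 0. In MBNL1 the isoforms apart were listed at 0 with Arkadia siRNA, against lower bounds of 0.0489 and 0.0642 with ESRP2 siRNA. ITGA6, an integrin with alternative cytoplasmic tails, had the largest, 0.445: its shorter isoform stood at 89.8% with Arkadia siRNA, 45.3% with ESRP2 siRNA and 63.2% with control siRNA. MBNL1 had 0.437 over 7 isoforms, FGFR2 0.409 over 9, TCF7L2 0.399 over 13 and PLEKHA1 0.354 over 3. CTNND1, which encodes p120 catenin, had 0.325 over 22 isoforms and KIF13A, a kinesin, 0.316 over 5.

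NF2 had a change of 0.278, FGFR3 of 0.272 and DNM2, a dynamin, of 0.255. Below 0.25 lay MAP3K7 with 0.247, EXOC1 with 0.225, FGFR1 with 0.186 and MPRIP with 0.160. In MAP3K7, the TAK1 kinase, one isoform stood at 6.73% with Arkadia siRNA, 31.4% with ESRP2 siRNA and 9.38% with control siRNA. In MPRIP, a myosin phosphatase interactor, the longer isoform stood at 6.75%, 22.7% and 12.9%. Of the other targets compared, 7 changed little: RPS24, SCARB1, SCRIB, ENAH, ATP5C1, AP1G1 and RAC1 changed by 0.0932 or less, and RAC1 by 0.00432.

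The 12 largest changes of all were near-complete exchanges between isoforms. In CRBN, cereblon of a cullin ligase, the isoform with 3 more bases stood at 99.6% with Arkadia siRNA, 0.223% with ESRP2 siRNA and 99.96% with control siRNA. In MLL, a histone methyltransferase, the isoform with 9 more bases stood at 0.327%, 98.9% and 32.2%. In CLCN2, a chloride channel, isoforms with the 51-base exon stood at 99.98% with Arkadia siRNA, 0.427% with ESRP2 siRNA and 60.5% with control siRNA. The others were NR4A1, PACSIN3, C20orf96, PARP3, TGFBRAP1, VARS2, RGMA, SLC11A2 and MAD1L1, with changes of 0.952 to 0.9996. VARS2 is listed with several copies of the same transcripts at different start sites, most of them at 0 in every library. How reads were divided among these copies was not checked.

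Several of these pairs differ by a few bases in their length in the table: PACSIN3 and C20orf96 by 4, PARP3 by 5 and TGFBRAP1 by 3. Of 190 genes with 2 isoforms whose lengths differ by at most 9 bases, 26 were past 0.25 (13.7%), with a median change of 0.00546. Of 258 with a gap above 500 bases, 50 were (19.4%), with a median of 0.0938. Reads that span so small a difference are few, and their assignment was not checked here.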

How the data were processed

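The FPKM values were deposited by the authors, with hg19, Cuffdiff, Cufflinks 2.1.1, TopHat2 2.0.10 and Bowtie2 2.1.0 named, per the submitters' processing notes. The sources used here do not give scaling or strand use. Authors' intervals are the lower and upper bounds of the tables, per the file headers. Poly(A) RNA was taken and read with Ion kits, per the labels' protocols. Members needed status OK in all 3 libraries and a mean FPKM of at least 1; the log2 ratio used a pseudocount of 1. Depth was estimated from genes with 1 isoform above 2000 nt, whose low FPKM values were whole multiples of 1 read within 0.1 for 83.9% (ESRP2 siRNA) and 90.5% (Arkadia siRNA) of values. Transcripts of GENCODE 29 gave the GC content, matched by accession (97.2%) or symbol (1.82%), and the median of each of 10 deciles was subtracted. Named genes were RNF111, ESRP2 and ESRP1, the 15 largest ratios each way (larger FPKM 5 or more, intervals apart), 10 each way after GC subtraction, up to 5 past 1.5-fold in each of 30 lists, members listed at 0 in 1 library with 5 or more in the other, 2 genes on each side of the minimum, the most abundant gene, the 12 largest isoform changes and ESRP targets with a change of at least 0.1. Members and lists were chosen with earlier results of these data known. Scripts ran in Python 3.11.15 with pandas 2.3.3 and were tested on simulated data. Alternatives were tried for pseudocount, filter, scaling, length, GC content, table and intervals; subtracting length after GC, GC with intervals, block shares summed over isoforms, and the interval and isoform-number views of ESRP targets were added after the data were seen. A few named genes and sequences that met these rules are not reported here.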

Additional observations from a re-analysis of the deposited data

How the results depend on the processing

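The counts of 1093 higher and 1867 lower genes kept their size within 1.5 times under a pseudocount of 0.1, both filters on mean FPKM, both scalings, length subtraction, a minimum length of 300 nt and the isoform sums. They moved to 508 and 952 with a pseudocount of 5, to 430 and 568 after GC subtraction, to 416 and 576 after GC and then length subtraction (added after the data were seen), to 221 and 529 with intervals not overlapping, and to 100 and 195 with both GC subtraction and that rule (added). The split of calls moved from 36.9% higher to 51.2% and 51.7% with the median of ratios and the upper quartile, and to 49.7% with length subtraction. The median log2 ratio of -0.13 moved to 3.12e-05 and 0.00401 with these scalings. Of 3450 genes, 909 had changed isoform shares; this became 335 of 1568 at a summed FPKM of at least 20, 1542 of 4923 at 1, 392 with an isoform whose intervals were apart, and 312 of 1385 with isoforms of one start site summed.

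Of 30 list medians, 16 changed sign after GC subtraction, 15 after GC and length subtraction and 6 with the median of ratios. With both values in that order, those at 0.1 or more in size as deposited were epithelial (-0.0400, -0.0231), mesenchymal (0.189, 0.121), translation factor (0.0985, 0.0729), heat shock (0.0648, 0.0760), kidney developmental (-0.0650, -0.0505), ZNF (0.0311, 0.0310) and RNF family (0.0491, 0.0629) genes. Those under 0.1 were TGF-beta and BMP components (0.165, 0.176) and targets (-0.179, -0.163), proteasome (0.291, 0.261), histone (-0.136, -0.240), immediate early (-0.295, -0.281), mitochondrial ribosomal (0.0876, 0.0595), interferon (0.0139, 0.0276) and neuronal (-0.0120, -0.000822) genes, and ESRP targets after GC subtraction alone (-0.00629). The median of ratios turned translation factors (0.0433), the RNF family (0.0119), TGF-beta and BMP components (0.0318), proteasome (0.0642), mitochondrial ribosomal (0.143) and interferon (0.125) genes. Of 171 named genes, GC subtraction turned the sign of CHORDC1 (0.29), EIF2AK2 (0.24), IFIT5 (0.29), PAX2 (-0.0326) and PSMA5 (0.00841) and took 44 more under their size; the median of ratios took 2 under it and a pseudocount of 0.1 none. No paired analysis was possible because each group has 1 library, and for the same reason no replicate could be left out. Depth limits low values: 1 read on 1 kb is an FPKM of 0.1097 with Arkadia siRNA and 0.0796 with ESRP2 siRNA.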
